A study of Mus musculus with 6 samples.

Results

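The genes described here are 8 genes of basal cell identity and of the attachment of epithelial cells to the basement membrane, read from RNA-seq counts of the whole mouse epididymis. They were chosen by symbol, with earlier results of these data known: Trp63, Itga6, Itgb4, Itga3, Lama3, Lamb3, Dst and Plec. All 8 were among the 57127 genes listed in the count table, and all 8 were among the 19691 genes with enough counts to be tested. Between Ocln-KO and WT epididymis, 0 of the 8 passed the test. Among their direct partners, the tetraspanin gene Cd151 fell to 0.746 of its WT level and the basal keratin gene Krt14 rose 1.49-fold. Both calls were lost when any 1 WT library was left out.

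Basal cells sit on the basement membrane of the epididymal duct, beneath the principal and clear cells. Trp63 encodes p63, a transcription factor of the p53 family that maintains basal cells in many epithelia. Hemidesmosomes rivet the basal surface to laminin-332 in the basement membrane. The integrin of the alpha6 chain (Itga6) and beta4 chain (Itgb4) spans the membrane, and the linker proteins plectin (Plec) and dystonin (Dst, also called BPAG1) tie it to the keratin filaments inside the cell. Lama3 and Lamb3 encode chains of laminin-332, and the integrin of alpha3 (Itga3) and beta1 (Itgb1) also binds it.

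The design held 2 groups of adult mice labelled as strain C57BL/6. WT mice carried intact Ocln, the gene of the tight junction protein occludin. Ocln-KO mice carried the deletion in the germline, thus in all cells, and were bred from heterozygous pairings, so effects on the duct and on other organs cannot be told apart. There were 3 libraries in each group, each from RNA of a whole epididymis. The methods speak both of separate extractions from each pair of mice and of pooled RNA, so the p values below measure the spread between libraries, and it is not settled that this is the spread between animals. The extraction note in the labels names prefrontal cortex, whereas the tissue label names the epididymis. The epididymal secretory genes Crisp1 and Lcn5 stood at 4439 to 16768 CPM and at 2479 to 6476 CPM (counts scaled to a common library size with TMM factors), and the cortical neuron gene Slc17a7 stood at no more than 0.469 CPM.

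The libraries held 30646424 to 38870780 counts, so that 1 count was worth 0.0267 to 0.0314 CPM. Ocln itself was at 85.9, 78.8 and 91.8 CPM in WT replicates 1, 2 and 3 and at 15.1, 15.3 and 14.9 CPM in Ocln-KO replicates 1, 2 and 3 (log2 fold change -2.50, SE 0.09). Over all genes, 1762 of 19691 passed at a false discovery rate (FDR) under 0.05 in edgeR's quasi-likelihood test, a background of 8.95%, and the median log2 fold change was 0.01. Scaling by total counts alone moved the share of higher genes among those called from 43.7% to 63.5%. Ocln-KO replicate 3 lay apart from the other libraries on the first principal component, and leaving out any 1 WT library cut the calls over all genes to between 23 and 230. The markers of clear cells fell, with summed levels of 84.5 to 106 CPM in WT and 42.2 to 52.9 CPM in Ocln-KO epididymis and 4 of 5 markers called (2 without Ocln-KO replicate 2).

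The basal cell label was checked against Trp63, Krt5, Krt14, Krt15, Ngfr, Itga6 and Aqp3. Trp63, Krt5, Krt14, Krt15 and Itga6 were each at 10.6 CPM or more in all 6 libraries and Ngfr lay between 1.53 and 2.46 CPM. Krt15 (log2 fold change 0.20, FDR 0.659) and Ngfr (0.03, FDR 0.959) overlapped between WT and Ocln-KO libraries and did not pass. Aqp3, a water channel used as a basal marker elsewhere, was at 0 counts in 3 of the 6 libraries and reached 0.294 CPM at most. Itga6, Itga3, Plec and Dst are also expressed outside basal cells. In whole tissue, fewer cells of a type and less RNA per cell cannot be told apart.

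Dst and Plec encode several proteins from different start sites. RefSeq (GRCm38.p6) places Dst at chr1:33907888-34308662 on the plus strand and Plec at chr15:76170974-76231378 on the minus strand. GENCODE M21 lists 11 distinct starts of protein-coding transcripts for Dst and 15 for Plec, and a gene count adds up all of them. Promoter sequences were at hand for 3 of the 8 genes, with 2 windows for each, and 4 of these windows are shown here, chosen to display how unlike such starts can be. Each is the 250 bases before an annotated start, and capitals mark GGGCGG, a core binding site of the SP1 factor, searched on both strands.
Dst, chr1:34011345-34011594, plus strand: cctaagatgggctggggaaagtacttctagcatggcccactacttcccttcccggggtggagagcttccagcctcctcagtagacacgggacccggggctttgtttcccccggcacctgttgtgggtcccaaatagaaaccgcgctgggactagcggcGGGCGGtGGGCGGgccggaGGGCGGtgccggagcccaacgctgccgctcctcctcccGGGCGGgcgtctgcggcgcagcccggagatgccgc
Dst, chr1:34160010-34160259, plus strand: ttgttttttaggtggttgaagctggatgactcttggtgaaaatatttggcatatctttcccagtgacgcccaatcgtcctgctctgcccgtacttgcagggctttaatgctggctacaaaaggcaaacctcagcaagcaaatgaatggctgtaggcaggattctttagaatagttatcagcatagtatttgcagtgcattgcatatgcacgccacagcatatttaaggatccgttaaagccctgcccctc
Lamb3, chr1:193301744-193301993, plus strand: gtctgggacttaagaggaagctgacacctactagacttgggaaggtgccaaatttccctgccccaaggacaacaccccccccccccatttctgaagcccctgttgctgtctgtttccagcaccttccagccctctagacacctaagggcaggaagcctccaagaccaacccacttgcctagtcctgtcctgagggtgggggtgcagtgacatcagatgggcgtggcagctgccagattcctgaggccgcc
Itga3, chr11:95076715-95076964, minus strand: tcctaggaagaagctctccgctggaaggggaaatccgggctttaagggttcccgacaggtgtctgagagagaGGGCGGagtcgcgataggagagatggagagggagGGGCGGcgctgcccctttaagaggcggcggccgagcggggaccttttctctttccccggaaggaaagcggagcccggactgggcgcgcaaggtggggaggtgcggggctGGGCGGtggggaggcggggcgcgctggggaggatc
The 2 Dst windows differed in GC content, at 68.8% and 45.2%, and held 4 and 0 of the SP1 motifs. The Itga3 window shown held 3 and that of Lamb3 held 0. The windows not shown held 1 motif for Itga3, at 50.8% GC, and 0 for Lamb3. Over 32851 promoter windows of the same length, 32.7% held the motif. TGANTCA, the AP-1 motif, and the p53 family half-site, found in 6.75% and 7.13% of all windows, had no match in any of the 4 windows. A match is a string of letters and not a measured binding site.

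Per kilobase of exon, the order of the 8 genes in WT epididymis was Plec, Itga3, Dst, Itga6, Trp63, Lama3, Itgb4 and Lamb3. Plec stood highest, at 22.7 ± 1.58 CPM per kb (SD, n = 3), and Lamb3 lowest, at 1.98 ± 0.298 CPM per kb. The WT ranges of neighbours did not overlap except for Trp63 with Lama3 and Lama3 with Itgb4. Trp63 was at 6.13 to 7.33, Lama3 at 5.15 to 7.12 and Itgb4 at 4.97 to 6.70 CPM per kb. The levels of Dst and Plec divide by exons of all their transcripts, of which a cell may use only some.

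**Figure D1:**
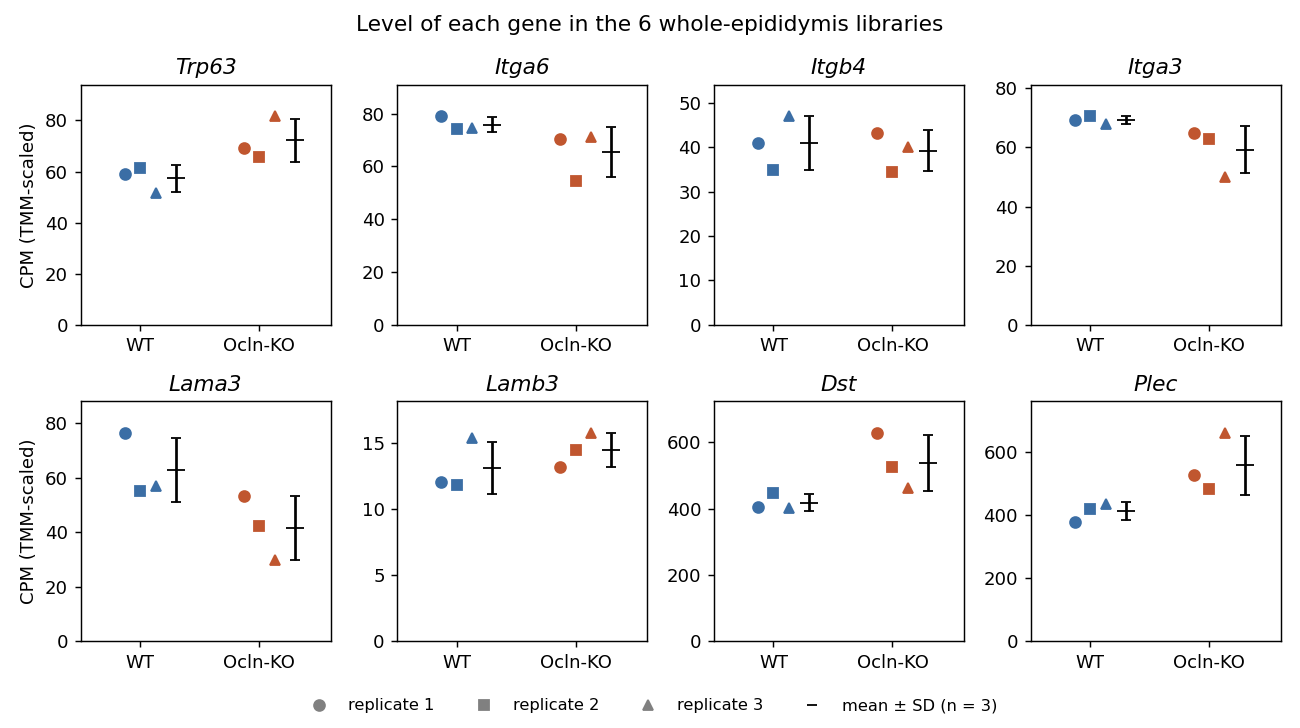
Level of each of the 8 genes in CPM, with 1 panel per gene and an axis from 0. Points are libraries, with shapes for replicates 1 to 3, and bars are the mean ± SD (n = 3); Trp63, Dst and Plec lay higher in all 3 Ocln-KO libraries, and Itga6, Itga3 and Lama3 lay lower in all 3.

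Trp63 lies at chr16:25683763-25892088 on the plus strand. It was at 59.0, 61.5 and 51.4 CPM in the WT libraries and at 69.4, 65.5 and 81.7 CPM in the Ocln-KO libraries, replicates 1 to 3 in that order. All 3 Ocln-KO libraries lay above all 3 WT libraries, with means of 72.2 ± 8.42 and 57.3 ± 5.24 CPM. The fold change was 1.26, with a 95% interval of 1.05 to 1.51 (log2 0.33, SE 0.11), and the edgeR FDR was 0.106. The call did not change under any of 14 alternative settings, in which the FDR lay between 0.0622 and 0.267. The count does not separate the full-length p63 transcripts from those that start at the internal promoter. GENCODE M21 lists 3 distinct starts of protein-coding transcripts for Trp63.

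The integrin genes of the hemidesmosome had flat or lower levels. Itga6, at chr2:71786886-71858427, was at 79.0, 74.1 and 74.4 CPM in WT and at 70.6, 54.4 and 71.3 CPM in Ocln-KO libraries. The groups did not overlap, but Ocln-KO replicates 1 and 3 were close to the lowest WT library, and replicate 2 was the one well below. The log2 fold change was -0.21 (SE 0.12, FDR 0.272). Its partner Itgb4, at chr11:115974725-116008412, was at 41.0, 34.9 and 47.0 CPM in WT and at 43.3, 34.3 and 40.2 CPM in Ocln-KO libraries. These groups overlapped, and the fold change of 0.959 had a 95% interval of 0.771 to 1.19 (FDR 0.808), so that the data do not tell apart changes within that span.

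Itga3, at chr11:95044475-95076844 on the minus strand, encodes the alpha chain of the other laminin-332 receptor. It was at 69.2, 70.6 and 68.1 CPM in WT and at 64.9, 62.8 and 50.1 CPM in Ocln-KO libraries. The WT libraries lay close together, all 3 Ocln-KO libraries lay below them, and replicate 3 was the lowest. The fold change was 0.856, with a 95% interval of 0.716 to 1.02 (log2 -0.22, SE 0.11, FDR 0.224). Itgb1, which pairs with Itga3 and with many other alpha chains, was at 505 to 574 CPM in WT and at 510 to 551 CPM in Ocln-KO libraries (FDR 0.935).

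Lama3 and Lamb3 did not have fitted changes of the same sign. Lama3, the alpha3 chain, was at 76.5, 55.3 and 56.9 CPM in WT and at 53.2, 42.1 and 29.7 CPM in Ocln-KO libraries. Ocln-KO replicate 1 was only just below the lower WT libraries and replicate 3 was well below all others. The fold change of 0.663 had a 95% interval of 0.468 to 0.938 (log2 -0.59, SE 0.22), at an unadjusted p of 0.0258 and an FDR of 0.119 in edgeR. Without Ocln-KO replicate 3 the log2 fold change was -0.40 (FDR 0.161).

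Lamb3, the beta3 chain, at chr1:193294353-193343878, was at 12.1, 11.8 and 15.3 CPM in WT and at 13.2, 14.5 and 15.8 CPM in Ocln-KO libraries. The groups overlapped (fold change 1.11, 95% interval 0.868 to 1.41, FDR 0.567). Neither of these chain genes passed the test.

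On the scale of CPM per kb of exon, the WT means were 5.85 ± 1.10 for Lama3 and 1.98 ± 0.298 for Lamb3, and the Ocln-KO means were 3.88 ± 1.09 and 2.19 ± 0.196. Lamb3 was the scarcer of the pair in all 6 libraries. The levels came closest in Ocln-KO replicate 3, at 2.77 CPM per kb for Lama3 and 2.39 CPM per kb for Lamb3. Lama5, a chain of other epithelial laminins, was at 7.41 ± 0.309 CPM per kb in WT and 9.46 ± 0.709 in Ocln-KO epididymis, so that its WT range of 7.12 to 7.73 reached down to the highest WT library of Lama3. The summed level of general epithelial markers was also lowest in Ocln-KO replicate 3, at 1236 CPM against 1454 to 1625 CPM in WT and 1357 and 1609 CPM in the other Ocln-KO libraries, and the part of this in the laminin values was not tested. As for those markers, edgeR called 1 of 6, beside 8.95% of all tested genes. The called marker was Krt19, which rose from 68.5 ± 6.69 to 118 ± 26.6 CPM (FDR 0.0336). Fitted levels were lower for 4 of the 6 and higher for 2, with a median log2 fold change of -0.099. Krt8 was among the lower ones, without overlap of the groups (log2 -0.31, unadjusted edgeR p 0.0211, FDR 0.108). The Krt19 call was lost without WT replicate 1, 2 or 3 (FDR 0.129, 0.0749 and 0.126) and without Ocln-KO replicate 1 (FDR 0.0525).

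**Figure D2:**
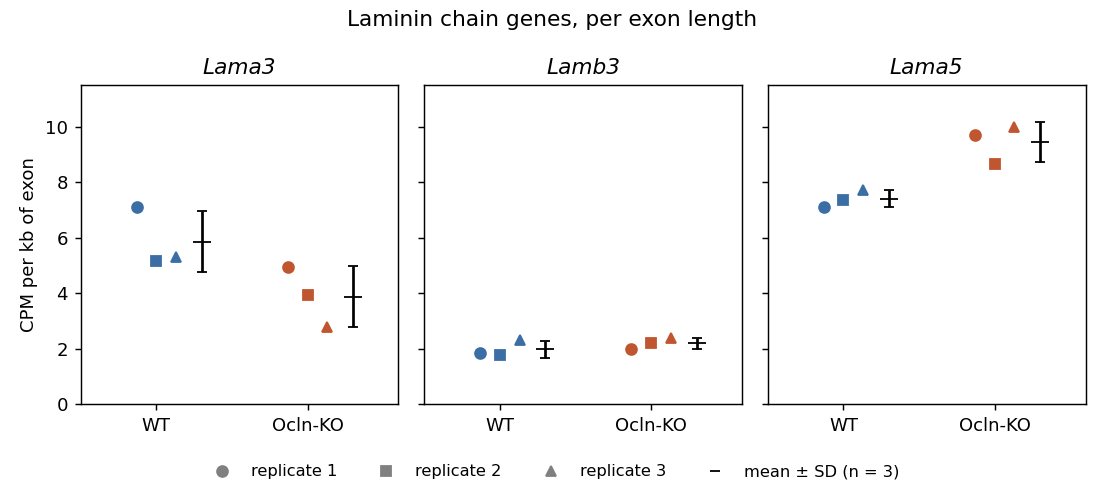
Levels of Lama3, Lamb3 and Lama5 in CPM per kb of exon, on a shared axis from 0. Points are libraries and bars are the mean ± SD (n = 3); Lama3 lay lower and Lama5 higher in the Ocln-KO libraries, and Lamb3 lay between 1.79 and 2.39 CPM per kb in all 6.

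The genes of the linker proteins had the highest counts of the 8. Dst was at 406, 447 and 401 CPM in WT and at 628, 525 and 461 CPM in Ocln-KO libraries. The groups did not overlap, although Ocln-KO replicate 3 was close to WT replicate 2. The fold change was 1.29, with a 95% interval of 1.05 to 1.58 (log2 0.37, SE 0.13, edgeR FDR 0.108). Plec was at 379, 420 and 435 CPM in WT and at 527, 483 and 660 CPM in Ocln-KO libraries. Here replicate 3 was the highest of all. The fold change was 1.35, with a 95% interval of 1.09 to 1.67 (log2 0.44, SE 0.13, edgeR FDR 0.0778).

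DESeq2, the tool of the study's methods, called both linker genes higher, at adjusted p values of 0.0472 for Dst and 0.0204 for Plec, and neither had the fold over 2 that those methods also ask for. Without Ocln-KO replicate 3, edgeR called Dst (FDR 0.0404) and not Plec (FDR 0.118). Both genes are also used by muscle cells. Smooth muscle markers summed to 1183 to 1429 CPM in WT and 1616 to 2187 CPM in Ocln-KO libraries. Of the 6, 2 rose (Myh11 and Actg2), where 3.91% of all tested genes were called higher, and none was at 0. All 6 had an unadjusted edgeR p under 0.05, DESeq2 called 4 and limma-voom 1, and edgeR called 5 with Ocln-KO replicate 1 left out and 0 with replicate 2 left out (then 2 at an unadjusted p under 0.05). The part of muscle RNA in the Dst and Plec values was not tested. Plec shares 205 exon bases with Parp10 on the same strand, 1.13% of its exons, and Parp10 had at most 694 counts.

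**Figure D3:**
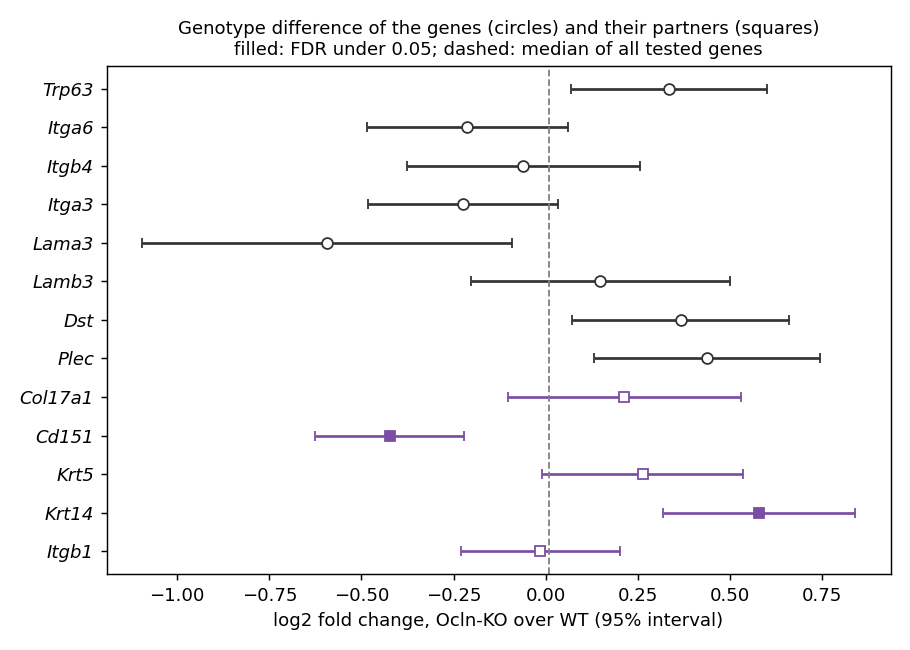
Log2 fold change, Ocln-KO over WT, of the 8 genes and their direct partners, with 95% intervals from edgeR. The dashed line is the median of all tested genes, 0.01, and filled symbols mark an FDR under 0.05; Cd151 and Krt14 were called at an FDR under 0.05, and the intervals of Trp63, Lama3, Dst and Plec also lay to 1 side of 0 without passing the FDR threshold.

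As a list, 4 of the 8 genes had higher and 4 had lower fitted levels in Ocln-KO epididymis, and the median log2 fold change was 0.04. By edgeR's quasi-likelihood test 0 of 8 passed at FDR 0.05, against the background of 8.95% (3.91% higher and 5.04% lower, and 3.19% also changed over 2-fold), and 4 of 8 had an unadjusted p under 0.05, where 29.1% of all tested genes did. Limma-voom called 0 and DESeq2 called 2, where they called 1779 and 3312 genes in all. The groups did not overlap for 6 of the 8, with 3 higher and 3 lower, where 36.3% of all tested genes did not overlap (16.9% higher and 19.4% lower).

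Of 5 direct partners, 1 rose, 1 fell and 3 did not pass, where 8.95% of all tested genes were called. Cd151, a tetraspanin that binds the laminin-receptor integrins, was at 154, 150 and 173 CPM in WT and at 120, 120 and 116 CPM in Ocln-KO libraries. The Ocln-KO libraries lay close together below the WT range. Its fold change was 0.746, with a 95% interval of 0.649 to 0.857 (log2 -0.42, SE 0.09, edgeR FDR 0.0314). The call was lost with total-count scaling (FDR 0.0557), without WT replicate 1, 2 or 3 (FDR 0.110, 0.0717 and 0.104) and without Ocln-KO replicate 1 or 2 (FDR 0.0502 and 0.0770). Cd151 overlaps Gm10575 on the opposite strand over 7.04% of its exons, and Gm10575 had at most 213 counts.

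Krt14, a keratin of basal cells, was at 30.0, 26.1 and 29.4 CPM in WT and at 47.1, 42.8 and 37.8 CPM in Ocln-KO libraries, with no overlap. It rose 1.49-fold, with a 95% interval of 1.25 to 1.79 (log2 0.58, SE 0.11, edgeR FDR 0.0276). Without WT replicate 1, 2 or 3 its FDR was 0.103, 0.0864 and 0.0949, and without Ocln-KO replicate 2 it was 0.0703. Its filament partner Krt5 was at 41.7, 43.8 and 49.8 CPM in WT and at 54.5, 47.4 and 60.5 CPM in Ocln-KO libraries (FDR 0.186). These groups overlapped. How reads shared by closely related keratin genes were counted is not given in the sources used here. Col17a1, the transmembrane collagen of hemidesmosomes, was at 18.3, 18.7 and 18.9 CPM in WT and at 24.7, 17.9 and 22.3 CPM in Ocln-KO libraries (FDR 0.343), and its groups overlapped as well.

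Ratios within a library do not depend on scaling between libraries, and 8 ratios between genes that work together were compared with 2-sided exact permutation tests, in which 3 against 3 libraries cannot give a p below 0.1. The p values were adjusted over all 8, and 6 are given here. The count ratio of Lama3 to Lamb3 was 6.33, 4.68 and 3.71 in WT and 4.03, 2.90 and 1.89 in Ocln-KO libraries, and these groups overlapped (exact p = 0.2, Benjamini-Hochberg adjusted 0.4).

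The ratio of Itgb4 to Krt5 was 0.981, 0.796 and 0.944 in WT and 0.793, 0.725 and 0.664 in Ocln-KO libraries. It was lower in the Ocln-KO libraries without overlap, by a narrow margin between WT replicate 2 and Ocln-KO replicate 1 (exact p = 0.1, adjusted 0.4). The ratio of Trp63 to Krt5 lay between 1.03 and 1.42 in WT and between 1.27 and 1.38 in Ocln-KO libraries (exact p = 1), with the WT range around the Ocln-KO range. The ratios of Itga6 to Itgb4 (exact p = 0.4, adjusted 0.533), Itga3 to Itgb1 (exact p = 0.2, adjusted 0.4) and Dst to Plec (exact p = 1) also overlapped between groups. Dst to Plec ranged from 0.698 in Ocln-KO replicate 3 to 1.19 in Ocln-KO replicate 1.

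**Figure D4:**
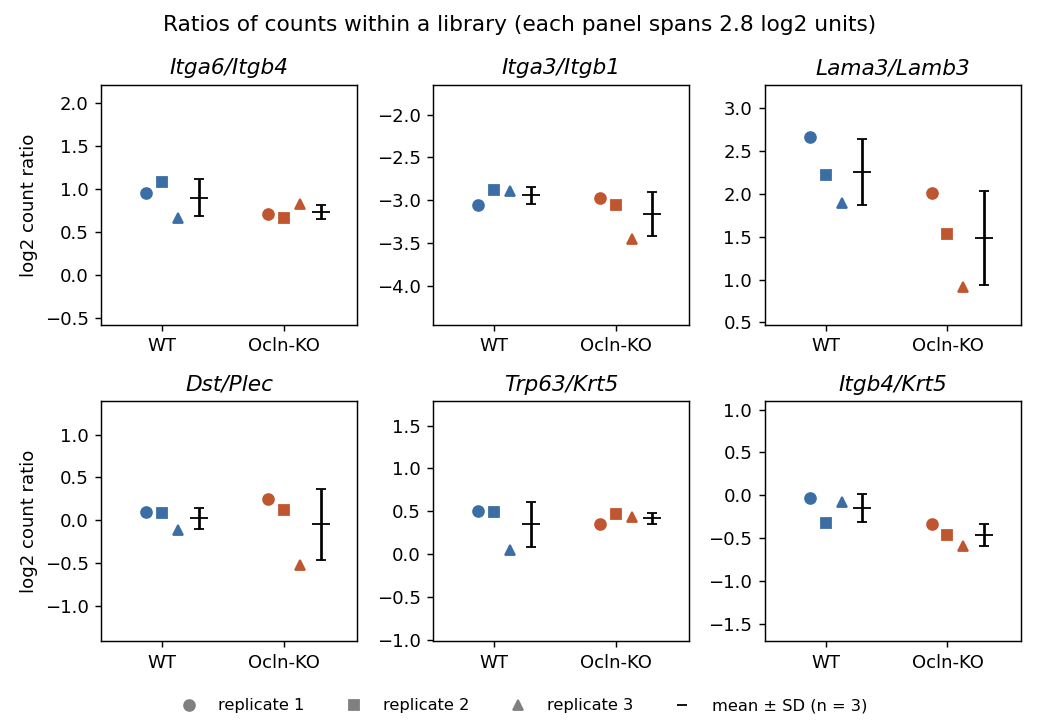
Log2 count ratio of paired genes in each library for 6 ratios, with WT and Ocln-KO libraries side by side. Itgb4 to Krt5 was lower in all 3 Ocln-KO libraries, and the other 5 ratios overlapped.

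Other basal markers and textbook targets of p63 gave 2 genes that rose and 0 that fell among 11 tested of 12. Of all tested genes, 3.91% were called higher and 5.04% lower. Of the 11, 9 had higher and 2 had lower fitted levels, and the median log2 fold change was 0.50. Without overlap of the groups, 5 were higher and 1 was lower, beside 16.9% and 19.4% of all tested genes. DESeq2 called 4 of the 11, where it called 3312 of 19680 genes in all. Of these 4, 3 were higher and 1 was lower. The lower one was Jag2, a Notch ligand named here after its values were seen (DESeq2 adjusted p 0.0293). Jag2 was at 54.3, 49.1 and 74.3 CPM in WT and at 46.3, 34.4 and 39.4 CPM in Ocln-KO libraries, without overlap, and did not pass in edgeR (log2 -0.57, FDR 0.0818). Perp, a desmosome-associated p63 target, was at 56.5, 55.7 and 55.1 CPM in WT and at 73.8, 68.8 and 95.3 CPM in Ocln-KO libraries. It rose 1.42-fold (log2 0.51, SE 0.13, FDR 0.0483), and no FDR under 0.05 was left when any of the 6 libraries was omitted (0.0503 to 0.151). Fgfr2, a growth factor receptor that p63 regulates in skin, rose 1.41-fold, from 121 ± 4.30 to 171 ± 17.4 CPM (log2 0.50, SE 0.10, FDR 0.0279). Its call was lost without WT replicate 1, 2 or 3 (FDR 0.114, 0.0788 and 0.107).

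The relatives of p63 did not pass in edgeR, limma-voom or DESeq2. In edgeR 1 of the 2 had an unadjusted p under 0.05, beside 29.1% of all tested genes. Both relatives are named here after their values were seen. Trp53 was at 35.3 to 37.6 CPM in WT and at 31.5 to 35.9 CPM in Ocln-KO libraries (FDR 0.555). Trp73 was at 0.134, 0.264 and 0.296 CPM in WT and at 0.655, 0.659 and 0.414 CPM in Ocln-KO libraries (FDR 0.143), a level of few counts.

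The other plakins, relatives of Dst and Plec, gave 0 of 5 called in edgeR and in limma-voom. DESeq2 called 2 of the 5, where it called 3312 of 19680 genes in all. At an unadjusted edgeR p under 0.05 there were 4 of 5, beside 29.1% of all tested genes. Those 4 were Dsp, Ppl, Evpl and Macf1, named here after their values were seen, and in each all 3 Ocln-KO libraries lay above the WT range, as in 16.9% of all tested genes. The fifth, Eppk1, had a log2 fold change of -0.16 with overlapping groups (FDR 0.449). The log2 fold changes of Dsp, Ppl, Evpl and Macf1 were 0.34, 0.51, 0.56 and 0.21, beside 0.37 for Dst and 0.44 for Plec. Dsp, the desmosomal linker, was at 263, 287 and 280 CPM in WT and at 408, 341 and 304 CPM in Ocln-KO libraries (FDR 0.110). As with Dst, replicate 1 was the highest and replicate 3 the lowest Ocln-KO library. Without Ocln-KO replicate 3, 2 of the 5 were called, where 1692 of 20370 genes were called in all.

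Among 20 other basement membrane genes, 1 rose and 0 fell, where 8.95% of all tested genes were called. The median log2 fold change was 0.16, and it became 0.036 when Ocln-KO replicate 3 was left out and 0.24 when replicate 2 was. Lama5, the alpha5 chain found in most mature epithelial basement membranes, was at 81.0, 84.0 and 88.1 CPM in WT and at 110, 98.6 and 114 CPM in Ocln-KO libraries. The groups did not overlap, and the fold change of 1.28 had an FDR of 0.0499, at the edge of the threshold and lost when any of the 6 libraries was omitted (0.0647 to 0.170). DESeq2 called 4 of the 20, where it called 3312 of 19680 genes in all. Lama3 and Lama5 therefore had fitted changes of opposite sign, of which the one for Lama3 did not pass.

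Of 23 other integrin genes, 21 could be tested, 2 rose and 0 fell, where 3.91% of all tested genes were called higher and 5.04% lower. The median log2 fold change was 0.61, and it was 0.35 without Ocln-KO replicate 3. Itga5, the alpha chain of a fibronectin receptor, was at 7.43, 7.91 and 6.76 CPM in WT and at 14.2, 22.2 and 22.9 CPM in Ocln-KO libraries. It rose 2.68-fold (log2 1.42, SE 0.20, FDR 0.0143). Itga2, the alpha chain of a collagen and laminin receptor, was at 2.54, 3.16 and 2.94 CPM in WT and at 8.01, 5.96 and 5.83 CPM in Ocln-KO libraries. It rose 2.29-fold (log2 1.20, SE 0.22, FDR 0.0248). Both calls were lost without any 1 WT library (FDR 0.0504 to 0.0818 for Itga5 and 0.0670 to 0.109 for Itga2), and that of Itga2 also without Ocln-KO replicate 2 (FDR 0.0535).

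The integrin counts moved with the settings. DESeq2 called 9 of the 21, where it called 3312 of 19680 genes in all. Scaling by total counts called 7, where 1849 of 19691 genes were called. Leaving out Ocln-KO replicate 1 gave 7, where 1657 of 20352 genes were called. For 11 of the 21, all higher, the groups did not overlap, where 16.9% of all tested genes were higher without overlap. The list holds leukocyte integrins, and macrophage markers summed to 124 to 147 CPM in WT and to 152, 177 and 306 CPM in Ocln-KO libraries. Of those 5 markers, edgeR and limma-voom called 0 and DESeq2 called 2. All 5 had an unadjusted edgeR p under 0.05, as 29.1% of all tested genes did, and none was at 0. Without Ocln-KO replicate 1 edgeR called 4 of the 5. The part of leukocyte RNA in the integrin values was not tested.

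With any 1 WT library left out, edgeR called 0 genes of the partners, of the p63 targets, of the other basement membrane genes and of the other integrins. At an unadjusted p under 0.05 the partners then gave 2 to 3 genes and the p63 targets 4 to 5. The basement membrane genes gave 4 to 5 and the integrins 9 to 11. Over all genes, these fits gave 4323 to 4898 of 20277 to 20316 tested. The clear cell, epithelial and muscle markers also gave 0 calls in these fits, with 5, 1 to 2 and 2 to 4 genes at an unadjusted p under 0.05.

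Markers of other cells that could add RNA were also read. Endothelial markers summed to 75.2 to 89.9 CPM in WT and 78.6 to 95.3 CPM in Ocln-KO libraries. EdgeR, limma-voom and DESeq2 called 0 of these 5. At an unadjusted edgeR p under 0.05 there were 2, beside 29.1% of all tested genes. These were Kdr, lower (log2 -0.29), and Emcn, higher (log2 0.40). Schwann cell markers summed to 7.49 to 10.7 and 9.57 to 13.6 CPM, 3 of 5 could be tested, and 0 passed in any of the 3 tools or at an unadjusted p under 0.05. Stratified squamous markers, which would come from another p63-expressing epithelium, summed to 1.24 to 2.65 CPM in WT and 1.98 to 2.71 CPM in Ocln-KO libraries. Krt6a and Krt13 were at 0 in all 6 libraries. Lor had 3, 2 and 0 counts in WT and 9, 7 and 31 counts in Ocln-KO libraries, too few to test, and only Krt10 had enough counts to test, where it did not pass in any of the 3 tools (FDR 0.845).

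Among 16358 genes with a mean of at least 1 CPM, Lrrc17, Stard9, Cd33 and Phactr2 were among those whose levels followed Trp63 most closely over the 6 libraries. Each was higher in all 3 Ocln-KO libraries and highest in replicate 3, as Trp63 was, and their FDR values ran from 0.0788 to 0.121. Phactr2 had nearly the same levels as Trp63, at 63.6, 64.6 and 54.1 CPM in WT and at 71.4, 70.3 and 87.9 CPM in Ocln-KO libraries. The 6 points share the genotype split, so that any gene with that split and a high replicate 3 ranks well.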

How the data were processed

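Gene expression was measured by RNA-seq of rRNA-depleted total RNA of whole epididymis in 3 WT and 3 Ocln-KO libraries, with a directional library kit and paired-end reads. The deposited values are raw gene counts that the authors made with hisat2 (HISAT2 2.0.4 in the submitters' processing notes) on GRCm38 and HTSeq. The counting mode, strand setting and treatment of multi-mapping reads are not given in the sources used here. All 6 columns of the table were used and 0 were left unused. The table held 27 symbols in date form and 2 repeated ones, none of them a gene named here.

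The tests were run with edgeR 4.0.16 under R 4.3.3. Genes passing filterByExpr were scaled by TMM factors, fitted with glmQLFit on genotype and tested with glmQLFTest, with Benjamini-Hochberg adjustment over all 19691 tested genes. The FDR threshold was 0.05. A fold over 2 or under 0.5 in addition, as in the study's methods, left 628 genes (3.19%). Standard errors were derived from the fold change and its F statistic. Libraries of 30646424 to 38870780 counts put 3 counts at 0.0802 to 0.0942 CPM, and this floor covers counting error only. Exon lengths and numbers of transcript starts came from GENCODE M21, coordinates and promoters from RefSeq, both on GRCm38.

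Alternatives were DESeq2 1.42.0, limma-voom (limma 3.58.1), RLE factors, total counts, no count filter, TMM factors that omit the 20 most abundant genes, 10 counts in every library, a replicate block and leaving out each library. On simulated counts for this comparison (19319 genes, 200 changed 4-fold), edgeR recovered 92% and called 6 unchanged genes, limma-voom 91.5% and 5, and DESeq2 94.5% and 35. The recovery of changes as small as those of the 8 genes was not tested. The 8 genes and all lists were chosen with earlier results of these data known. Named genes are all 8 genes, their direct partners, list genes with an FDR under 0.05, cell type markers and those of the 5 genes most like Trp63 that are given, found by Pearson correlation of log2 CPM. Crisp1, Lcn5 and Slc17a7 were added as a tissue check after the data were seen. Replicates of a group differed by more than sampling noise. Some values of the partners, ratios and genes like Trp63 are not reported here.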

Additional observations from a re-analysis of the deposited data

How the results depend on the processing

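Of 112 values of the 8 genes over 14 alternatives, 106 kept their direction and their side of the threshold, 3 passed it and 3 turned. Those that passed were Dst and Plec with DESeq2 and Dst without Ocln-KO replicate 3. Itgb4 turned to a log2 fold change of 0.026 with total counts only and, without WT replicate 3 or Ocln-KO replicate 2, of up to 0.052 (-0.17 to 0.052 over the omitted libraries), and Itgb1 turned to 0.070 with total counts only and, without WT replicate 1 or Ocln-KO replicate 1, to up to 0.041 (-0.051 to 0.041). None of these was called. For Dst to Plec, the difference in mean log2 ratio, Ocln-KO minus WT, ran from -0.22 to 0.16 over the omitted libraries. It turned without Ocln-KO replicate 3. For Trp63 to Krt5, this difference ran from -0.079 to 0.15 and turned without WT replicate 3. DESeq2 called 2 of the 8 genes and 3312 genes in all, against 0 and 1762 in edgeR; with 1 library left out edgeR called 0 to 1 of the 8 and 23 to 1692 in all. Fewer samples enter the latter fits, and otherwise the cause was not tested. No alternative was added after the data were seen.

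Same-numbered WT and Ocln-KO libraries did not deviate together (correlations of -0.053, -0.031 and -0.0026). Such values cannot exclude pairs with a small shared effect. The methods speak of pairs of mice, so it was not settled whether the numbers pair the libraries. A fit with the replicate block called 41 genes and 0 of the 8 genes. At an unadjusted p under 0.05 it gave 3 of the 8, beside 4807 of 19691 tested genes. It called 0 of the partners, with an FDR of 0.102 for Cd151 and 0.0872 for Krt14. Paired by number, the ratios could not reach a p below 0.25. Counts limit none of the 8 genes, while Aqp3 and most squamous markers were too low to test.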
